A study of Arabidopsis thaliana with 12 samples.

Results

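The 2 by 2 experiment on isoxaben and the PEP3 peptide asked, for each gene, whether the response to both agents together equalled the sum of the responses to each alone. The material was whole seedlings of Arabidopsis thaliana Col-0, aged 10 days and grown in liquid medium. They received 600 nM isoxaben together with 10 nM PEP3, 600 nM isoxaben, 10 nM PEP3, or DMSO, the solvent, which was present in equal amount in all 4 treatments. Poly(A) RNA was sequenced 6 h later from 3 biological replicates per treatment, 12 libraries in all, and each of the 12 entered the comparison. FPKM is fragments scaled by gene length and by a size factor for each library. The quantity tested was the interaction on log2(FPKM + 1). It is the effect of PEP3 in the presence of isoxaben minus the effect of PEP3 in its absence. An interaction of 0 means that the 2 responses added on this scale, which is multiplication on the FPKM scale. Negative values are called below additivity and positive ones above additivity. Of the 32833 genes in the table, 20248 averaged 0.5 FPKM or more across all libraries and were tested. A whole seedling is a mixture of organs, so fewer cells of a type and less RNA per cell cannot be told apart.

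Isoxaben is a herbicide that blocks cellulose synthesis at the plasma membrane and removes cellulose synthase complexes from it. Seedlings answer the weakened wall with jasmonate and salicylate accumulation, ectopic lignin and defence gene expression, a response that depends on wall integrity sensors such as the receptor kinase THESEUS1 (THE1). PEP3 is a peptide cut from the precursor PROPEP3 when cells are damaged. It is sensed by the receptor kinases PEPR1 and PEPR2, which act with the co-receptor BAK1 and amplify pattern-triggered immunity. Both treatments therefore feed overlapping sets of defence genes, and the interaction shows where the joint response departs from a plain sum.

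The libraries held between 16995775 and 22793764 fragments assigned to genes, recovered from the FPKM values, and 22776 to 23068 genes above 0. Pearson correlations across genes between libraries of the same treatment were 0.986 to 0.991. Summed shoot markers, to which the Rubisco gene RBCS1A contributed most, reached 15665 to 20114 FPKM and summed root markers 1290 to 2514 FPKM. On average 4 of 5 anther and pollen markers and 3 of 4 seed markers stayed under 0.5 FPKM.

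Of the 20248 genes tested, 1263 (6.24%) were called for the interaction by limma at a Benjamini-Hochberg adjusted p under 0.05. Departures below additivity outnumbered those above it, with 870 genes (4.30%) below and 393 (1.94%) above. Among larger departures the imbalance was steeper: 284 genes (1.40%) lay below additivity by at least 1 on the log2 scale and 19 (0.0938%) above by as much. The share of calls that lay above additivity was 31.1%, and it was 24.0% after rescaling to TPM and 37.4% after quantile normalization. The total ranged from 662 to 1500 when a single library was left out. It was 662 without DMSO replicate 1, 683 without PEP3 replicate 2, 739 without isoxaben plus PEP3 replicate 3, 743 without DMSO replicate 2 and 795 without isoxaben replicate 2. Calls below additivity were 522, 527, 563, 575 and 586 in that order.

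The genes below additivity tended to be higher with each agent. Their median level relative to DMSO was 0.95 higher on the log2(FPKM + 1) scale with both agents, 1.27 higher with isoxaben and 0.42 higher with PEP3, so the joint response was smaller than that to isoxaben alone. In 668 of the 870 genes (76.8%) the mean with both agents lay between the means of the single treatments. It lay above both in 132 genes (15.2%) and below both in 70 (8.05%). Genes above additivity tended to be lower with each agent. Their medians relative to DMSO were -0.45 with both agents, -0.67 with isoxaben and -0.36 with PEP3, and 269 of 393 (68.4%) lay between the single treatments. Over all genes tested, 47.3% lay between the singles, and the median interaction was -0.01.

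**Figure D1:**
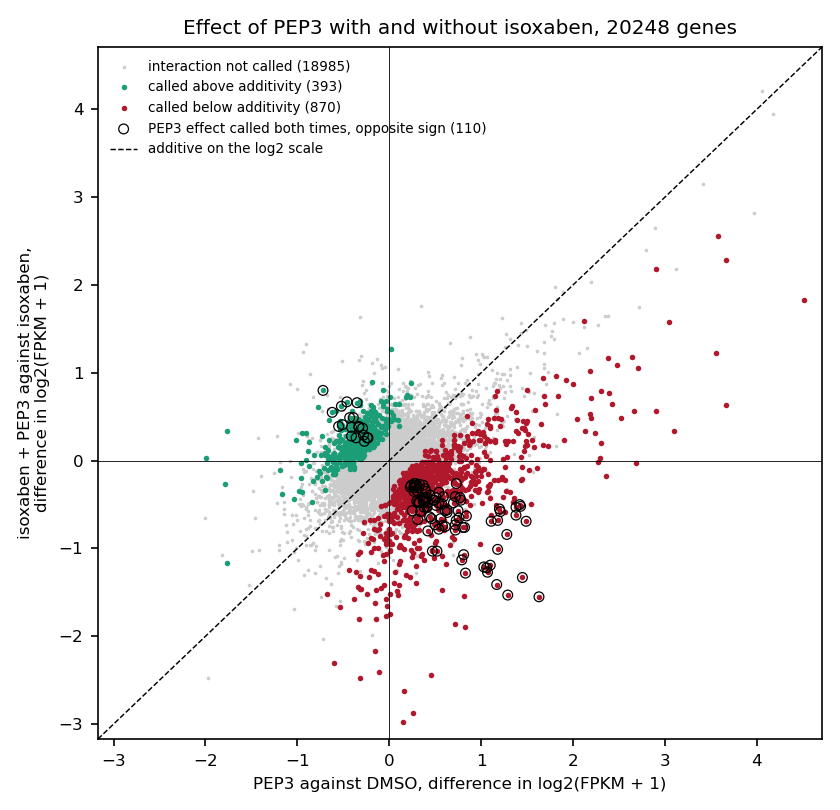
Each point is 1 of 20248 genes, with the difference between isoxaben plus PEP3 and isoxaben upward and the difference between PEP3 and DMSO across, both in log2(FPKM + 1). Red points are the 870 genes called below additivity, green points the 393 called above, and circled points the 110 genes whose PEP3 effect was called both times with opposite sign. Most circled points lie at lower right, where PEP3 raised a gene alone and lowered it on top of isoxaben.

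The W-box core, TTGAC, is the motif bound by WRKY transcription factors, and the G-box, CACGTG, is bound by the jasmonate factor MYC2. The promoters of PROPEP3 and of the camalexin genes CYP71A12 and CYP71A13, all below additivity, are shown as the 250 bases before the annotated start, 5′ to 3′ on the gene's strand in TAIR10.1, from RefSeq, with W-box cores on either strand in capitals. The promoter of JAZ8, a jasmonate repressor gene below additivity, is shown with its G-box in capitals and with W-box cores left unmarked.
PROPEP3 (chr5:25939312-25939561, + strand): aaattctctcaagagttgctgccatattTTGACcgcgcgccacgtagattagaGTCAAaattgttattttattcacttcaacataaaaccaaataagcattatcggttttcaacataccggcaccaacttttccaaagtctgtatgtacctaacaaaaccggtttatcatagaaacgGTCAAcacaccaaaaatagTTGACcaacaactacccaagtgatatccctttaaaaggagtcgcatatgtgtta
CYP71A12 (chr2:13101372-13101621, - strand): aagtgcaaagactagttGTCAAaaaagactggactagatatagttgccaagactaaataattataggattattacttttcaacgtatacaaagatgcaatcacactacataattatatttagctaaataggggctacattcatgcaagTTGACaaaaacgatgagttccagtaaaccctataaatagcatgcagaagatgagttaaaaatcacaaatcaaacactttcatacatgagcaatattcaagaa
CYP71A13 (chr2:13111989-13112238, - strand): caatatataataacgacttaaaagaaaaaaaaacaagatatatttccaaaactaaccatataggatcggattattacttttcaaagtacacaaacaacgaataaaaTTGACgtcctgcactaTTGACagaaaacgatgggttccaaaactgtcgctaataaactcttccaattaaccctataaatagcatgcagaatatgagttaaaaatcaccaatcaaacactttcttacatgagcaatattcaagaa
JAZ8 (chr1:10596102-10596351, + strand): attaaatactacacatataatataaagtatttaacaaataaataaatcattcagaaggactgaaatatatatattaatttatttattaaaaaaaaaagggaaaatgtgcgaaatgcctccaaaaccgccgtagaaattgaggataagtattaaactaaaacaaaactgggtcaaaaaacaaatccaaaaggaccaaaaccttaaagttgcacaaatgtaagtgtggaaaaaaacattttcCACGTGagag

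The window of PROPEP3 held 4 W-box cores and those of CYP71A12 and CYP71A13 held 2 each, while JAZ8 held 1 G-box, which ends 4 bases before the start. A W-box core stood in 45.1% and a G-box in 7.13% of all 20135 windows of this length. Over the longer window that runs to 50 bases after the start, the W-box core was present in 67.2% of 867 promoters below additivity and in 44.3% of 393 above it. The share was 59.7% of 2640 promoters of genes that isoxaben alone raised and that were not called for the interaction, and 51.0% of 20135 promoters of all genes tested. The rapid stress response element, CGCGTT, stood in 7.38% of the promoters below additivity, in 6.67% of those raised by isoxaben alone without an interaction call and in 3.76% of all. Site II, TGGGCC, an element of growth-related and ribosomal genes, stood in 10.0% of those below additivity, in 12.7% of those raised by isoxaben alone without an interaction call and in 18.3% of all. The G-box stood in 10.5% of those below additivity, in 11.7% of those above it and in 8.54% of all. It stood in 11.2% of those raised by isoxaben alone without an interaction call. Both strands were searched, the as-1 core TGACG can overlap the W-box core, and these counts describe letters only.

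The tested genes were read through 43 lists of genes that share a role. Lists of jasmonate, tryptophan-derived defence, salicylate, phenylpropanoid and receptor genes held calls below additivity well above the 4.30% of all genes, and the list of photosystem, antenna and Rubisco genes held calls above it. In 10 lists, among them the cellulose synthases, no member was called. The plot of calls by gene list shows the order.

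**Figure D2:**
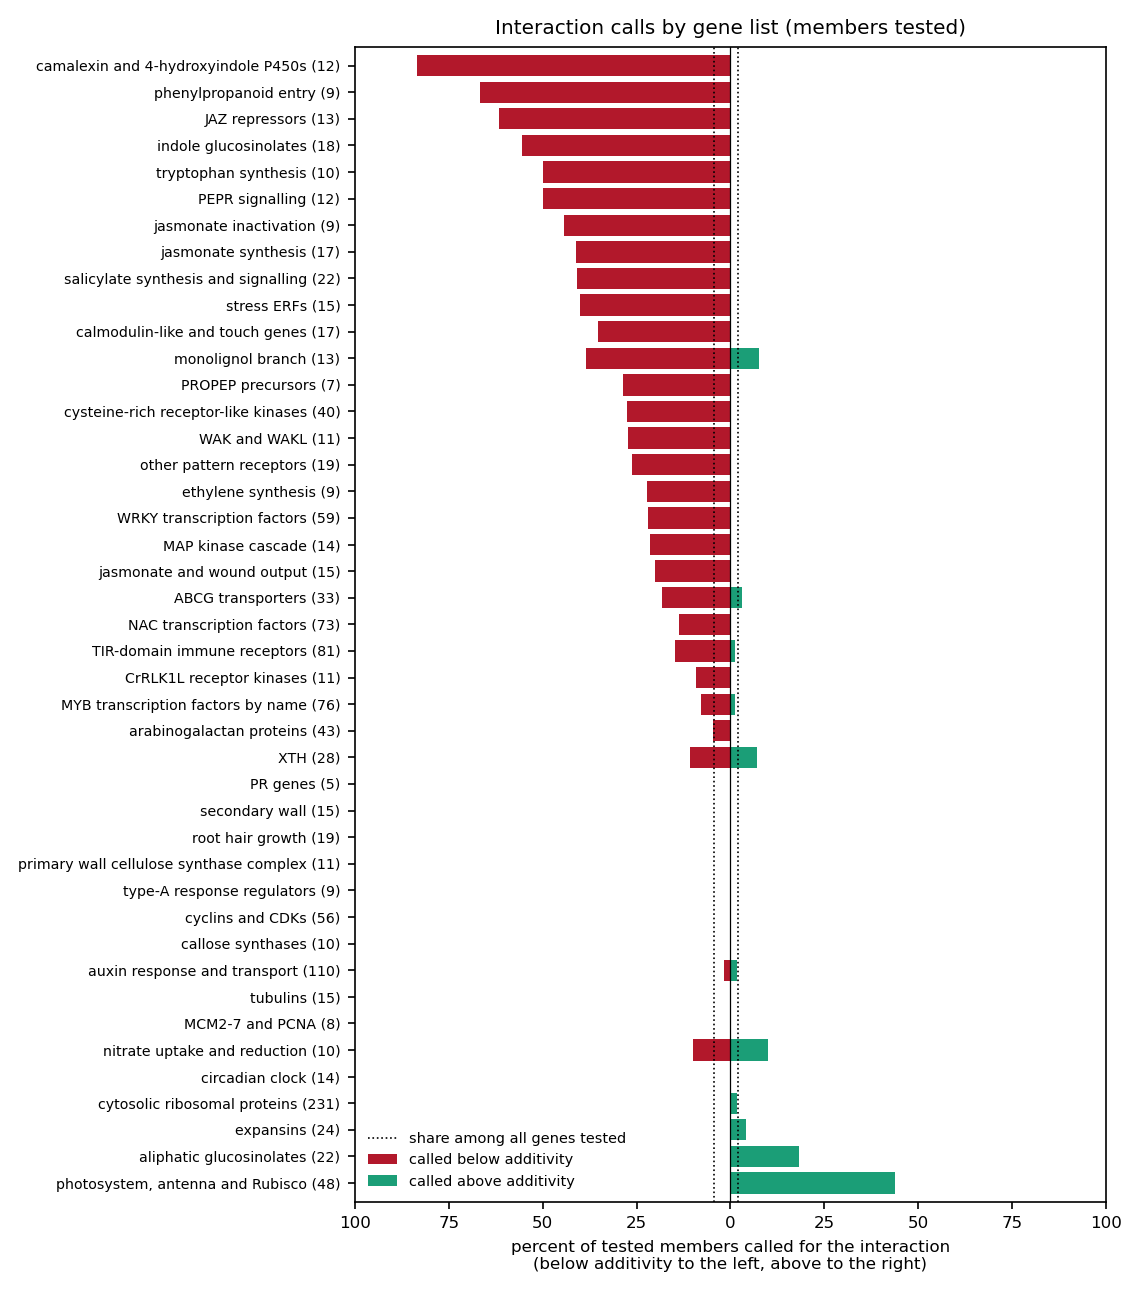
Bars give the percent of tested members of each of 43 gene lists called for the interaction by limma, below additivity to the left and above to the right, with the number tested in brackets. Dotted lines mark the shares among all genes tested, 4.30% below and 1.94% above; the list of camalexin and 4-hydroxyindole P450s reaches furthest left with 10 of 12 members, and the photosystem, antenna and Rubisco list furthest right with 21 of 48.

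In the 3 lists of jasmonate synthesis, JAZ repressors and jasmonate inactivation, the median response to isoxaben was smaller when PEP3 was added. PEP3 alone lowered 2 of 17 synthesis genes, 1 of 13 JAZ repressors and 1 of 9 inactivation genes. It raised 1 synthesis gene and 0 of the other 2 lists. Of all genes tested, 6.45% were lower and 7.84% higher with PEP3 alone. Of 17 tested jasmonate synthesis genes, 7 were called below additivity, with a median interaction of -0.51 over the list. Among the JAZ repressors, which are themselves switched on by jasmonate and damp its signalling, 8 of 13 were called below additivity, and the estimates of all 13 were negative, with a median of -0.79. Of 9 genes that inactivate jasmonate, 4 were called, with a median of -1.06. Relative to DMSO the JAZ repressors had a median of 1.15 with both agents, 1.93 with isoxaben and -0.20 with PEP3. The matching medians of the inactivation genes were 1.00, 2.49 and -0.32. Set directly against isoxaben, the libraries with both agents were lower in 11 of 13 JAZ repressors, 8 of 9 inactivation genes and 10 of 17 synthesis genes, where 4.09% of all genes were called lower. Relative to DMSO, both agents together raised 10 of the 13 JAZ repressors (16.9% of all genes tested) and isoxaben alone raised 11 (17.3% of all).

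AOC3 encodes an allene oxide cyclase of jasmonate synthesis (chr3:9409160-9411090). It stood at 55.8, 49.5 and 47.5 FPKM with isoxaben plus PEP3, at 132, 157 and 119 FPKM with isoxaben, at 13.0, 15.3 and 14.6 FPKM with PEP3 and at 12.3, 13.6 and 15.5 FPKM in DMSO. The isoxaben libraries were far above all others, those with both agents sat between, and the PEP3 and DMSO libraries overlapped. The interaction was -1.44 ± 0.154 (SE, limma, adjusted p = 0.000325). LOX4, a lipoxygenase that starts the pathway, was at 6.56, 8.84 and 7.78 FPKM with both agents and at 24.4, 25.3 and 20.0 FPKM with isoxaben. Again the isoxaben libraries were higher without overlap, and the interaction was -1.34 ± 0.198 (adjusted p = 0.00228). AOC1, a second cyclase gene, had an interaction of -1.12 ± 0.205 (adjusted p = 0.00689). AOS, the allene oxide synthase, was at 61.5 to 78.0 FPKM with both agents, 147 to 214 FPKM with isoxaben, 23.9 to 26.6 FPKM with PEP3 and 34.5 to 55.9 FPKM in DMSO. PEP3 lowered AOS both times, by 1.28 on the log2 scale added to isoxaben and by 0.81 alone, and its interaction of -0.47 ± 0.227 was not called (adjusted p = 0.261). LOX2, a chloroplast lipoxygenase, had an interaction of -0.34 ± 0.140 (adjusted p = 0.185).

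JAZ8, a repressor that resists degradation, was at 4.24, 3.19 and 2.85 FPKM with both agents, 23.1, 31.6 and 17.8 FPKM with isoxaben, 0, 0.285 and 0.331 FPKM with PEP3 and 0, 0.619 and 1.07 FPKM in DMSO. Its libraries with both agents lay well under those with isoxaben and above the other 6, and the interaction was -2.16 ± 0.355 (limma, adjusted p = 0.00396). The JAZ8 call was lost under 2 of 26 other settings, with 0.1 FPKM added before taking logs and in the voom fit on recovered fragments, where the highest adjusted p was 0.449. JAZ10 had an interaction of -1.19 ± 0.175 (adjusted p = 0.00228). JAZ7, at -1.17 ± 0.298, had an adjusted p of 0.0351 and lost the call under 11 of 26 other settings. Of the inactivating enzymes, JOX4, a jasmonate hydroxylase, was at 2.02 to 2.61 FPKM with both agents, 11.6 to 20.3 FPKM with isoxaben, 0.0677 to 0.217 FPKM with PEP3 and 0.471 to 0.994 FPKM in DMSO. Its PEP3 libraries lay below DMSO without overlap, and its interaction was -1.70 ± 0.249 (adjusted p = 0.00225). With 0.1 FPKM added in place of 1 before taking logs, the JOX4 interaction was -0.76 and not called (adjusted p = 0.356). IAR3, which cleaves conjugates of jasmonate and auxin, had an interaction of -1.49 ± 0.239 (adjusted p = 0.00334), and JOX3 one of -1.15 ± 0.312 (adjusted p = 0.0463), which lost the call under 19 of 26 other settings.

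Genes downstream of jasmonate and wounding were split. Of 15 tested, 3 were called below additivity, with a median of -0.21. PEP3 alone lowered 4 of the 15 and raised 1, where 6.45% of all genes were lower and 7.84% higher. NATA1, which acetylates ornithine, was at 18.3, 9.42 and 7.44 FPKM with both agents, 67.3, 192 and 49.2 FPKM with isoxaben, 3.28, 7.17 and 4.23 FPKM with PEP3 and 3.77, 2.53 and 5.37 FPKM in DMSO. The isoxaben libraries ranged widely, with replicate 2 highest, yet none came down to the level with both agents. The tyrosine aminotransferase gene TAT3 had an interaction of -1.89 ± 0.323 (limma, adjusted p = 0.00490), and ERF1, a factor joining jasmonate and ethylene signals, one of -1.31 ± 0.194 (adjusted p = 0.00240). VSP2, the vegetative storage protein often read as a jasmonate output, had an interaction of 0.32 ± 0.427 (adjusted p = 0.734). ABCG40, a transporter of the hormone abscisic acid, followed the same form as the jasmonate genes. It was at 4.89, 5.99 and 5.95 FPKM with both agents, 36.3, 62.6 and 27.0 FPKM with isoxaben, 1.39, 1.64 and 1.34 FPKM with PEP3 and 1.06, 0.860 and 1.76 FPKM in DMSO. The isoxaben libraries of ABCG40 were the highest without overlap, and PEP3 and DMSO libraries overlapped. With DIN11, an oxidoreductase gene (-2.72 ± 0.406, adjusted p = 0.00243), and the plant defensin gene PDF1.1 (-2.57 ± 0.422, adjusted p = 0.00388), ABCG40 (-2.78 ± 0.327, adjusted p = 0.000545) stood among the genes furthest below additivity.

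The counts of jasmonate genes moved with single libraries. Calls below additivity among jasmonate synthesis genes were 4 to 8 with 1 library left out, the lowest without PEP3 replicate 2. Among JAZ repressors they were 5 to 8, with 5 without isoxaben plus PEP3 replicate 3 and 5 without DMSO replicate 1, and 4 with 0.1 FPKM added before taking logs. In the voom fit on recovered fragments they were 7 of 17 for synthesis, 4 of 13 for JAZ repressors and 1 of 9 for inactivation. Among jasmonate inactivation genes they were 2 to 6 with 1 library left out. They were 2 without isoxaben plus PEP3 replicate 3, without isoxaben replicate 1 or 2, without PEP3 replicate 2 or 3, and without DMSO replicate 1 or 2. The median interactions of the 3 lists stayed negative, from -0.62 to -0.32, from -0.92 to -0.63 and from -1.35 to -0.75.

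**Figure D3:**
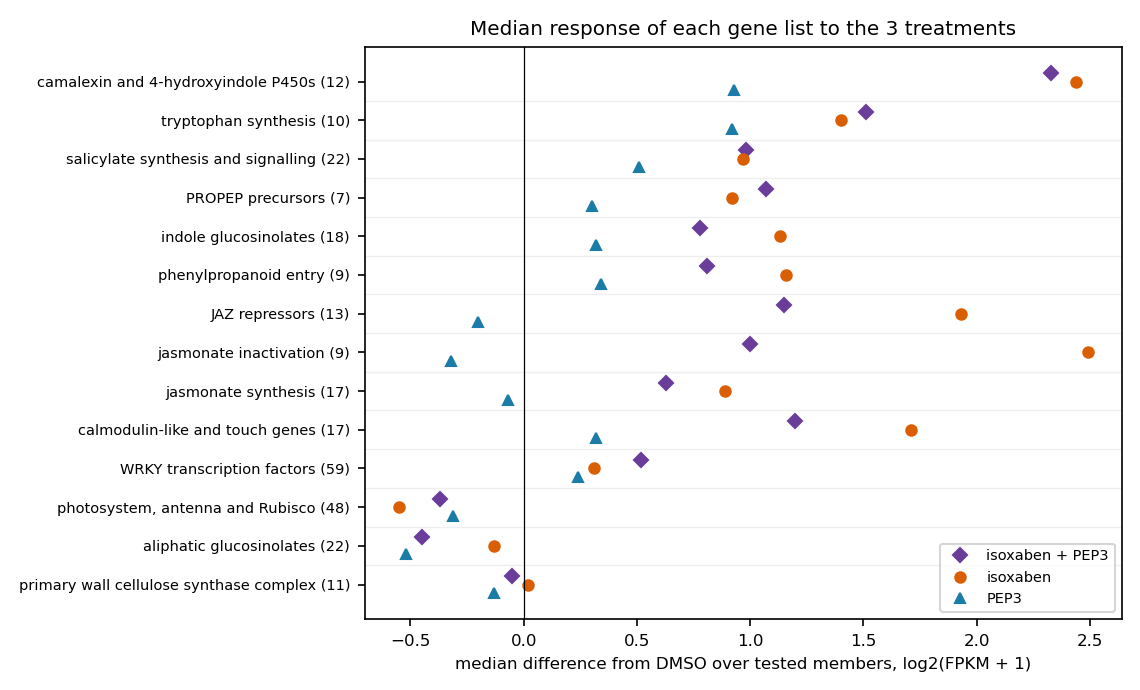
Points give the median difference from DMSO over the tested members of 14 lists, in log2(FPKM + 1), for isoxaben plus PEP3 (diamonds), isoxaben (circles) and PEP3 (triangles), with the number of members in brackets. In the 3 jasmonate lists the diamonds lie left of the circles and the triangles left of 0, while in the tryptophan synthesis list the diamond lies right of the circle, at 1.51 against 1.40.

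Genes for defence compounds made from tryptophan formed the list with the largest departure. Of 12 tested P450 and partner genes for camalexin and 4-hydroxyindole compounds, 10 were called below additivity, with a median interaction of -1.84. Of 18 indole glucosinolate genes 10 were called, median -0.61, and of 10 tryptophan synthesis genes 5, median -0.74. In the camalexin and 4-hydroxyindole list, isoxaben alone raised 11 of 12 genes (17.3% of all genes tested) and PEP3 alone 8 (7.84% of all). The list had medians of 2.33 with both, 2.44 with isoxaben and 0.93 with PEP3, relative to DMSO. Set against isoxaben, the libraries with both agents were lower in 6 members and higher in 3, where 4.09% and 3.32% of all genes were. When 1 library was left out, 8 to 11 members of that list were called below additivity, as were 7 to 11 of the indole glucosinolate genes and 3 to 7 of the tryptophan synthesis genes, with 3 without isoxaben plus PEP3 replicate 3, PEP3 replicate 2 or DMSO replicate 2.

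CYP71A12 and CYP71A13, neighbouring genes on chromosome 2, both make indole-3-acetonitrile from indole-3-acetaldoxime, yet arrived at their negative interactions from opposite sides. CYP71A13 was at 4.91, 6.34 and 4.83 FPKM with both agents, 45.3, 100 and 24.8 FPKM with isoxaben, 0.115, 1.15 and 0.785 FPKM with PEP3 and 0.0931, 0.334 and 1.16 FPKM in DMSO. Only the isoxaben libraries were high, those with both agents were several-fold lower, and PEP3 and DMSO libraries overlapped. CYP71A12 was at 116, 141 and 127 FPKM with both agents, 31.5, 54.3 and 25.6 FPKM with isoxaben, 59.8, 85.5 and 96.5 FPKM with PEP3 and 1.77, 3.27 and 2.68 FPKM in DMSO. The 4 groups did not overlap, and the libraries with both agents were highest. The interactions were -3.11 ± 0.562 for CYP71A13 and -2.68 ± 0.338 for CYP71A12 (limma, adjusted p = 0.00640 and 0.000800). Relative to isoxaben, adding PEP3 changed CYP71A13 by -2.97 (adjusted p = 0.000689) and CYP71A12 by 1.83 (adjusted p = 0.000616) on the log2 scale. The annotated CYP71A13 gene overlaps an antisense gene over 27.5% of its length, and its call was lost under 2 of 26 other settings, namely 0.1 FPKM added before taking logs and the voom fit on recovered fragments.

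PAD3, the last enzyme of camalexin synthesis, was at 72.2, 75.2 and 67.6 FPKM with both agents, 173, 312 and 132 FPKM with isoxaben, 22.5, 32.2 and 27.4 FPKM with PEP3 and 7.70, 10.9 and 17.8 FPKM in DMSO. The groups did not overlap, and the interaction was -2.59 ± 0.402 (limma, adjusted p = 0.00307). FOX1, an oxidase of the 4-hydroxyindole-3-carbonylnitrile branch, was at 40.9, 49.0 and 46.3 FPKM with both, 29.6, 42.5 and 19.1 FPKM with isoxaben, 21.3, 33.7 and 33.1 FPKM with PEP3 and 0.911, 1.57 and 1.65 FPKM in DMSO. Isoxaben and PEP3 libraries of FOX1 overlapped, DMSO libraries were far lower, and the interaction was -3.03 ± 0.336 (adjusted p = 0.000389). CYP82C2, the hydroxylase of that branch, was the exception, chosen for mention after its values were seen. It was at 22.0, 28.3 and 24.2 FPKM with both agents, 0.195, 0.901 and 0.190 FPKM with isoxaben, 9.18, 21.9 and 26.1 FPKM with PEP3 and 0.0253, 0.151 and 0.147 FPKM in DMSO. CYP82C2 was high wherever PEP3 was present, and its interaction was 0.14 ± 0.408 (adjusted p = 0.892).

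In the indole glucosinolate list, CYP81F2, which starts the 4-methoxy branch, was at 84.8, 101 and 85.5 FPKM with both agents, 98.4, 102 and 78.5 FPKM with isoxaben, 37.6, 50.7 and 50.6 FPKM with PEP3 and 4.12, 7.56 and 7.82 FPKM in DMSO. The libraries with both agents overlapped those with isoxaben, while PEP3 alone raised the gene by 2.69 on the log2 scale. The CYP81F2 interaction was -2.72 ± 0.261 (limma, adjusted p = 0.000201). The methyltransferase gene IGMT2 had an interaction of -2.27 ± 0.249 (adjusted p = 0.000385), but shares 96.6% of its sequence with a neighbouring copy, between which reads could be split. The regulators MYB51 and MYB122 had interactions of -1.18 ± 0.182 and -1.68 ± 0.191. In tryptophan synthesis, TSA1, the alpha subunit of tryptophan synthase, was at 775, 661 and 607 FPKM with both agents, 440, 670 and 440 FPKM with isoxaben, 526, 598 and 516 FPKM with PEP3 and 159, 176 and 184 FPKM in DMSO. The isoxaben libraries of TSA1 overlapped those with both agents and those with PEP3, and all 9 treated libraries were above DMSO. The interaction was -1.24 ± 0.200 (adjusted p = 0.00363). ASB1, a subunit of anthranilate synthase with near-identical copies, had an interaction of -1.36 ± 0.192 (adjusted p = 0.00172), and IGPS one of -1.04 ± 0.236 (adjusted p = 0.0206).

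The PROPEP precursor genes divided by member. Of 7 tested, PROPEP3 and PROPEP2 were called below additivity, and the median over the 7 was -0.26. PROPEP3, the precursor of the applied peptide, was at 32.3, 20.6 and 22.5 FPKM with both agents, 18.2, 17.0 and 13.9 FPKM with isoxaben, 12.1, 18.0 and 16.4 FPKM with PEP3 and 0.715, 1.82 and 1.14 FPKM in DMSO. The single treatments overlapped each other and the libraries with both agents lay above them. Its interaction was -2.33 ± 0.282 (limma, adjusted p = 0.000652). PROPEP2 was at 12.1, 7.68 and 10.2 FPKM with both agents, 6.60, 12.0 and 7.05 FPKM with isoxaben, 3.55, 5.53 and 4.82 FPKM with PEP3 and 0.275, 0.657 and 0.560 FPKM in DMSO, an interaction of -1.68 ± 0.297 (adjusted p = 0.00570). The libraries of PROPEP2 with both agents overlapped those with isoxaben. PROPEP1 had an interaction of -0.15 ± 0.163 (adjusted p = 0.661).

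Of 12 genes of PEPR signalling, 6 were called below additivity and all 12 estimates were negative, with a median of -0.33. The PEPR signalling count was 4 to 6 with 1 library left out. PEPR2 was at 1.99, 2.45 and 2.03 FPKM with both agents, 5.15, 6.74 and 4.64 FPKM with isoxaben, 1.06, 1.41 and 0.689 FPKM with PEP3 and 0.987, 0.881 and 1.21 FPKM in DMSO. Its isoxaben libraries were highest without overlap and its PEP3 and DMSO libraries overlapped, with an interaction of -1.04 ± 0.218 (limma, adjusted p = 0.0143). PEPR1, at 7.06 to 8.54, 9.46 to 13.0, 4.16 to 4.73 and 3.78 to 4.66 FPKM with both agents, isoxaben, PEP3 and DMSO, had an interaction of -0.62 ± 0.169 (adjusted p = 0.0479), a call lost under 15 of 26 other settings. RBOHD, the oxidase of the immune oxidative burst, had an interaction of -0.63 ± 0.122 (adjusted p = 0.00921), and the co-receptor SERK4 one of -0.91 ± 0.135 (adjusted p = 0.00230).

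Among 19 other pattern receptors and co-receptors 5 were called below additivity, led by NILR1, a receptor for nematode signals (-1.23 ± 0.238, limma, adjusted p = 0.00940), and BIR1, a regulator of BAK1 (-0.70 ± 0.131, adjusted p = 0.00798). The count of other pattern receptors was 8 without isoxaben replicate 3. FLS2, the flagellin receptor, had an interaction of -0.10 ± 0.143 (adjusted p = 0.766). Of 40 cysteine-rich receptor-like kinases 11 were called below additivity, among them CRK39 at -1.68 ± 0.270, CRK45 at -1.52 ± 0.224 and CRK13 at -1.40 ± 0.172. With 1 library left out the CRK count was 7 to 13, and it was 7 without isoxaben plus PEP3 replicate 3, PEP3 replicate 2 or DMSO replicate 1. CRK45 was at 29.5, 32.5 and 25.8 FPKM with both agents, 14.5, 17.1 and 17.9 FPKM with isoxaben, 26.8, 26.2 and 24.1 FPKM with PEP3 and 6.39, 3.46 and 3.69 FPKM in DMSO. All treated libraries of CRK45 were above DMSO, those with isoxaben alone were the lowest of the treated ones, and those with both agents overlapped PEP3. The wall-associated kinases WAK1 (-1.06 ± 0.138), WAK3 (-0.93 ± 0.211) and WAKL10 (-1.58 ± 0.270) were the 3 called of 11. Of the CrRLK1L family, which includes the wall sensors THE1 and FER, MDS3 alone of 11 was called (-0.65 ± 0.128, adjusted p = 0.0101), a call lost on the linear scale (adjusted p = 0.132), and 3 of 11 were called without PEP3 replicate 1. THE1 stood at 0.14 ± 0.133 (adjusted p = 0.624) and FER at -0.07 ± 0.0989 (adjusted p = 0.751).

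Of 81 TIR-domain immune receptor genes 12 were called below additivity and 1 above, with a median of -0.16. Calls below numbered 8 to 13 with 1 library left out. AT1G57630 was at 19.5, 20.9 and 17.4 FPKM with both agents, 48.2, 74.4 and 34.5 FPKM with isoxaben, 5.28, 7.00 and 3.81 FPKM with PEP3 and 0.976, 1.09 and 1.89 FPKM in DMSO. Its 4 groups did not overlap, and its interaction was -2.78 ± 0.341 (limma, adjusted p = 0.000716). AT1G66090 had an interaction of -1.42 ± 0.312 (adjusted p = 0.0180). AT5G41750, at -1.18 ± 0.186 (adjusted p = 0.00316), shares 91.1% of its sequence with its neighbour.

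Of 22 tested genes of salicylate synthesis and signalling 9 were called below additivity, and 7 to 10 with 1 library left out, with a median interaction of -0.64. Relative to DMSO the medians were 0.98 with both agents, 0.97 with isoxaben and 0.51 with PEP3. PBS3, which conjugates isochorismate to glutamate, was at 3.39, 3.58 and 3.38 FPKM with both agents, 6.75, 7.25 and 4.05 FPKM with isoxaben, 1.79, 2.67 and 2.34 FPKM with PEP3 and 0.212, 0.339 and 0.186 FPKM in DMSO. The groups did not overlap and the isoxaben libraries of PBS3 were highest, with an interaction of -2.01 ± 0.238 (limma, adjusted p = 0.000575). CBP60g, a transcription factor of salicylate synthesis, was at 13.4, 13.8 and 12.6 FPKM with both agents, 13.7, 15.7 and 13.8 FPKM with isoxaben, 7.06, 7.27 and 5.99 FPKM with PEP3 and 1.99, 2.02 and 1.17 FPKM in DMSO. Here adding PEP3 left the gene at about the isoxaben level, and the interaction was -1.63 ± 0.175 (adjusted p = 0.000325). WRKY70 had an interaction of -1.53 ± 0.258 (adjusted p = 0.00452). ICS1, the isochorismate synthase, was at 7.07 to 7.55 FPKM with both agents, 7.45 to 12.0 FPKM with isoxaben, 3.34 to 5.00 FPKM with PEP3 and 3.41 to 4.95 FPKM in DMSO, with an interaction of -0.37 ± 0.231 (adjusted p = 0.396). PR1, a marker of the salicylate response, was scattered with both agents, at 1.70, 0.633 and 4.00 FPKM, and its interaction of -1.28 ± 0.466 was not called (adjusted p = 0.131). Without isoxaben plus PEP3 replicate 3 the call for PR1 was made, with an adjusted p of 0.0280.

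Transcription factors of the stress response were called below additivity in several families. Of 59 WRKY genes 13 were called, 12 to 15 with 1 library left out, with a median of -0.25. WRKY33, which drives camalexin genes, was at 68.1, 76.7 and 73.8 FPKM with both agents, 95.4, 102 and 93.1 FPKM with isoxaben, 19.0, 26.1 and 28.7 FPKM with PEP3 and 7.43, 10.5 and 11.6 FPKM in DMSO. WRKY46 was at 17.1, 16.4 and 14.8 FPKM with both agents, 34.5, 36.3 and 31.0 FPKM with isoxaben, 2.99, 2.75 and 2.48 FPKM with PEP3 and 1.58, 1.15 and 2.19 FPKM in DMSO. In both genes the isoxaben libraries were the highest and none of the 4 groups overlapped. Their interactions were -1.65 ± 0.209 (limma, adjusted p = 0.000804) for WRKY33 and -1.55 ± 0.179 (adjusted p = 0.000490) for WRKY46, and that of WRKY75 was -1.93 ± 0.394 (adjusted p = 0.0125). MYB15, which activates phenylpropanoid genes in immunity, was at 28.4, 33.8 and 30.4 FPKM with both agents, 43.2, 53.3 and 38.5 FPKM with isoxaben, 6.33, 6.06 and 6.37 FPKM with PEP3 and 1.32, 1.77 and 2.04 FPKM in DMSO. The 4 groups of MYB15 did not overlap and its interaction was -1.95 ± 0.171 (adjusted p = 8.79e-05).

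Of 73 NAC genes 10 were called below additivity, with NAC019 at -1.66 ± 0.305, JUB1 at -1.49 ± 0.304 and NAC055 at -1.26 ± 0.278. The NAC count was 5 to 13 with 1 library left out; it was 5 without PEP3 replicate 2, 6 without isoxaben plus PEP3 replicate 3 and 6 without DMSO replicate 1. Of 15 stress-responsive ERF genes 6 were called, 4 to 8 with 1 library left out, median -0.74. RAP2.6 was at 21.9, 20.8 and 19.9 FPKM with both agents, 83.0, 86.1 and 59.0 FPKM with isoxaben, 10.5, 12.0 and 10.3 FPKM with PEP3 and 14.6, 13.7 and 13.6 FPKM in DMSO. Its isoxaben libraries were far above the rest, its PEP3 libraries lay just under DMSO, and the interaction was -1.47 ± 0.165 (limma, adjusted p = 0.000410). Of 9 ethylene synthesis genes 2 were called: ACS6, the synthase of the ethylene precursor, at -1.30 ± 0.164 (adjusted p = 0.000800), and ACO4, the oxidase that makes ethylene, at -0.90 ± 0.114 (adjusted p = 0.000804). ACO4 stood at 422 to 423 FPKM with both agents, 625 to 780 FPKM with isoxaben, 241 to 260 FPKM with PEP3 and 198 to 233 FPKM in DMSO. Of 17 calmodulin-like and touch genes 6 were called, 4 to 9 with 1 library left out, median -0.62. Among them were CML47 at -1.52 ± 0.261 and CML41 at -1.21 ± 0.277. Of 14 MAP kinase cascade genes 3 were called, MPK11 at -1.38 ± 0.283, MKK4 at -0.90 ± 0.124 and MKK5 at -0.44 ± 0.0866, and 5 without PEP3 replicate 1.

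Phenylpropanoid genes, which supply lignin and defence phenolics, were called at both ends of the pathway. At its entry 6 of 9 genes were called below additivity, median -0.64, and in the monolignol branch 5 of 13 below and 1 above, median -0.42. PAL1, the first enzyme, was at 156, 179 and 169 FPKM with both agents, 218, 263 and 185 FPKM with isoxaben, 109, 121 and 114 FPKM with PEP3 and 78.8, 87.1 and 86.1 FPKM in DMSO. No groups of PAL1 overlapped, and the interaction was -0.83 ± 0.146 (limma, adjusted p = 0.00538). CCR2, the cinnamoyl-CoA reductase of stress and defence, was at 17.6, 18.2 and 14.8 FPKM with both agents, 34.1, 39.0 and 22.0 FPKM with isoxaben, 6.83, 6.31 and 5.87 FPKM with PEP3 and 2.01, 1.66 and 2.39 FPKM in DMSO. The order of the groups of CCR2 was the same as in PAL1, and the interaction was -2.12 ± 0.236 (adjusted p = 0.000401). 4CL5, a 4-coumarate CoA ligase gene that overlaps its antisense neighbour MKK5, had an interaction of -1.35 ± 0.275 (adjusted p = 0.0124) and 4CL1 one of -0.69 ± 0.131 (adjusted p = 0.00856). Further down, CAD5 stood at -0.83 ± 0.149 and HCT at -0.56 ± 0.118. The monolignol count below additivity was 8 without isoxaben replicate 3, and the 1 call above was lost in 10 of the 12 fits that left out a library. PER62, a peroxidase, was at 198, 206 and 184 FPKM with both agents, 161, 173 and 132 FPKM with isoxaben, 60.7, 76.5 and 61.2 FPKM with PEP3 and 7.13, 5.48 and 8.01 FPKM in DMSO, with an interaction of -2.76 ± 0.181 (adjusted p = 9.27e-06).

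**Figure D4:**
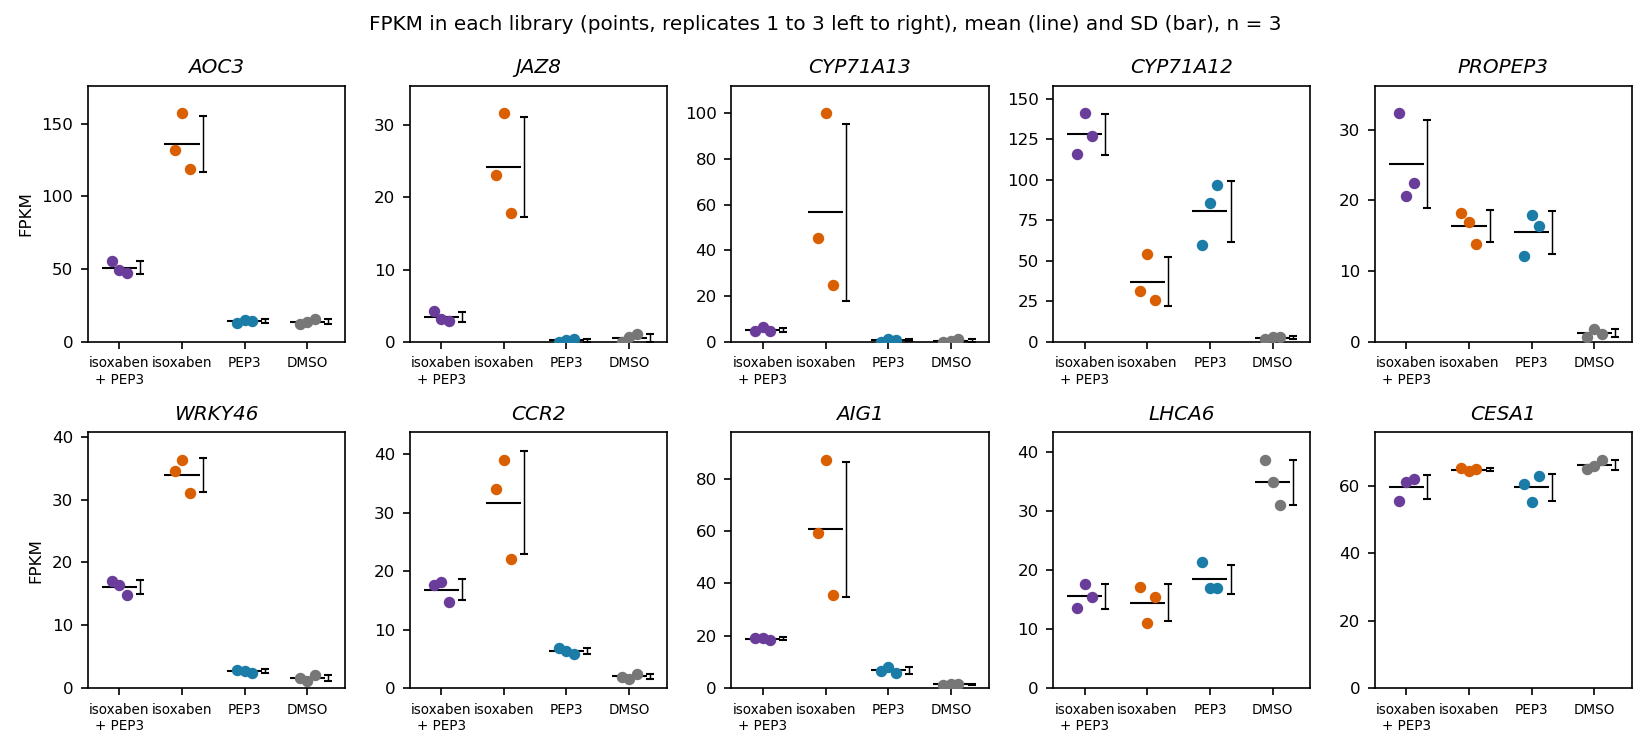
FPKM of 10 genes in each library (points), with the mean (line) and SD (bar) of 3 replicates, for isoxaben plus PEP3, isoxaben, PEP3 and DMSO from left to right on linear axes that start at 0. CYP71A13 is high with isoxaben only, CYP71A12 is highest with both agents, LHCA6 is highest in DMSO, and CESA1 lies between 55.2 and 67.7 FPKM throughout.

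A set of genes changed direction: PEP3 raised them alone and lowered them on top of isoxaben. The comparisons of PEP3 against DMSO and of both agents against isoxaben share no library. Both agents against isoxaben were called in 7.41% of genes and PEP3 against DMSO in 14.3%, of all genes 7.84% higher and 6.45% lower. In both, 613 genes were called, which is 40.8% of the 1501 called with isoxaben and 21.2% of the 2894 called without it. Of the 613, 315 were higher both times, 188 lower both times and 110 moved in opposite directions. In 91 of the 110, PEP3 lowered the gene in the presence of isoxaben and raised it in its absence, and in 19 the reverse held. All 110 were also called for the interaction, which their opposite effects largely fix. A change of sign does not depend on whether effects are added on a log or a linear scale. The count of opposite genes was 44 to 161 with 1 library left out.

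AIG1, a GTPase gene induced by avirulent bacteria (chr1:12346138-12348733), headed the 91. It was at 19.0, 19.3 and 18.3 FPKM with both agents, 59.4, 87.1 and 35.6 FPKM with isoxaben, 6.49, 8.21 and 5.79 FPKM with PEP3 and 1.23, 1.73 and 1.62 FPKM in DMSO. Without isoxaben all 3 PEP3 libraries were above all 3 DMSO libraries, and with isoxaben all 3 were below. PEP3 changed AIG1 by -1.55 ± 0.228 added to isoxaben (limma, adjusted p = 0.00130) and by 1.63 ± 0.228 alone (adjusted p = 0.000422). Genes already described belonged to the same set. CCR2 changed by -0.84 added to isoxaben and 1.28 alone, PAD3 by -1.41 and 1.17, PBS3 by -0.62 and 1.38, TAT3 by -1.07 and 0.81, and WRKY46 by -1.03 and 0.52. MYB15 changed by -0.52 and 1.43, MYB51 by -0.48 and 0.70, and PAL1 by -0.39 and 0.44, in the same order. The 91 were 0.449% of all genes tested. By list, they held 4 of 81 TIR-domain immune receptors, 3 of 59 WRKY genes, 2 of 76 MYB genes, 2 of 12 camalexin and 4-hydroxyindole genes and 2 of 18 indole glucosinolate genes, and 1 or 0 of any other list. The W-box core stood in 70.3% of the 91 promoters, close to the 67.2% of all promoters below additivity, to which the 91 belong. It stood in 59.7% of those raised by isoxaben alone without an interaction call and in 51.0% of all.

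The 19 genes of the reverse kind, lower with PEP3 alone and higher when it was added to isoxaben, are shown by 3 examples, which were chosen after their values were seen. AT2G10940, a gene for a lipid-transfer-like protein, was at 117, 159 and 164 FPKM with both agents, 104, 80.2 and 115 FPKM with isoxaben, 204, 180 and 203 FPKM with PEP3 and 312, 293 and 299 FPKM in DMSO. The PEP3 effect on AT2G10940 was 0.55 added to isoxaben and -0.62 alone. AGT1, the aminotransferase of photorespiration, changed by 0.49 added to isoxaben and -0.39 alone, and the aquaporin gene PIP1-5 by 0.29 and -0.28. For isoxaben, whose effects with and without PEP3 share no library either, 1523 genes were called both times, 91.0% of the 1673 called with PEP3 and 23.2% of the 6577 called without it. Both agents against PEP3 were called in 8.26% of all genes, 6.02% higher and 2.25% lower, and isoxaben against DMSO in 32.5%. Both agents against DMSO were called in 31.4%. Of the 1523 genes, 1149 were higher both times, 370 lower both times and 4 opposite.

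How much of the shortfall rests on the log scale was measured by testing additivity of FPKM itself, with the spread carried over from the log2 fit. On the linear scale 986 genes were called, 633 below and 353 above. Of them 911 had been called on the log2 scale in the same direction, 587 below and 324 above, and none in the opposite direction. Several genes that were highest with isoxaben kept their calls. The departure from the linear sum was -85.3 FPKM for AOC3 (adjusted p = 0.000653), -51.5 FPKM for CYP71A13 (adjusted p = 0.0224), -149 FPKM for PAD3 (adjusted p = 0.0173) and -52.1 FPKM for RAP2.6 (adjusted p = 0.000653). Genes that both agents raised strongly often lost theirs. This held for FOX1 (-13.0 FPKM, adjusted p = 0.360), PER62 (-19.0 FPKM, adjusted p = 0.571), CYP81F2 (-42.3 FPKM, adjusted p = 0.0733), PROPEP3 (-5.51 FPKM, adjusted p = 0.415), PROPEP2 (-2.69 FPKM, adjusted p = 0.388), WAK1 (-19.4 FPKM, adjusted p = 0.0911) and TSA1 (-210 FPKM, adjusted p = 0.115). Other named genes below additivity on the log2 scale were also not called on the linear scale. Among them were CRK45 (adjusted p = 0.187), JUB1 (0.505), WAK3 (0.325), IGPS (0.221), IGMT2 (0.130), MPK11 (0.0989), CML47 (0.0556) and SERK4 (0.0518). Of 26 other settings, the call was lost under 3 for WAK3 and for NAC055, and under 4 for IGPS and for CML41. CYP71A12 changed sign, with an excess of 12.9 FPKM over the linear sum (adjusted p = 0.761). AOS went the other way and was called on the linear scale (-83.2 FPKM, adjusted p = 0.0110).

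Of all genes tested, 3.13% were called below linear additivity. By list, these calls numbered 9 of 13 for the JAZ repressors, 9 of 17 for jasmonate synthesis and 7 of 9 for jasmonate inactivation. They were 8 of 12 for the camalexin and 4-hydroxyindole genes, 7 of 22 for salicylate, 5 of 18 for indole glucosinolates, 2 of 10 for tryptophan synthesis, 4 of 12 for PEPR signalling and 0 of 7 for the PROPEP precursors. PROPEP3 and PROPEP2, the 2 of that list called on the log2 scale, were thus not called on the linear scale, though both estimates stayed negative. On simulated data the linear test recovered 56.1% of changes of 1, against 76.3% for the log2 test. A call lost on the linear scale therefore does not show that the departure was absent there.

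Above additivity, nuclear genes of photosynthesis were the list with the most calls. Of 48 tested photosystem, antenna and Rubisco genes, 21 were called above additivity, where 1.94% of all genes were, and the estimates of all 48 were positive, with a median of 0.50. The medians relative to DMSO were -0.37 with both agents, -0.55 with isoxaben and -0.31 with PEP3. Relative to DMSO, both agents together lowered 29 of the 48 (14.4% of all genes tested), isoxaben alone 45 (15.2% of all) and PEP3 alone 25 (6.45% of all). The libraries with both agents were higher than those with isoxaben in 5, where 3.32% of all genes were called higher.

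LHCA6, an antenna protein of photosystem I (chr1:6612630-6613972), was at 13.5, 17.7 and 15.5 FPKM with both agents, 17.1, 11.0 and 15.4 FPKM with isoxaben, 21.3, 17.0 and 17.0 FPKM with PEP3 and 38.6, 34.9 and 31.0 FPKM in DMSO. DMSO libraries stood above all treated ones, and the treated groups overlapped. The interaction was 0.99 ± 0.208 (limma, adjusted p = 0.0143). LHCB3, of the photosystem II antenna, was at 358, 522 and 466 FPKM with both agents, 386, 406 and 350 FPKM with isoxaben, 578, 434 and 426 FPKM with PEP3 and 827, 655 and 663 FPKM in DMSO, an interaction of 0.80 ± 0.204 (adjusted p = 0.0343) that lost its call under 11 of 26 other settings. LHCB2.1, whose reads may be shared with a copy of 92.2% identity, was at 140, 176 and 168 FPKM with both agents, 97.8, 106 and 87.7 FPKM with isoxaben, 227, 168 and 162 FPKM with PEP3 and 200, 167 and 180 FPKM in DMSO. Its interaction was 0.71 ± 0.175 (adjusted p = 0.0311), a call lost under 10 of 26 other settings. The isoxaben libraries of LHCB2.1 were lowest without overlap, and those with both agents overlapped PEP3 and DMSO.

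The count of photosystem, antenna and Rubisco genes called was sensitive to single libraries, while the median was not. With 1 library left out the median stayed between 0.45 and 0.58 and the count between 6 and 37. It was 37 without PEP3 replicate 1, 12 and 11 without isoxaben replicates 1 and 2, 9 without isoxaben plus PEP3 replicate 2, 9 without DMSO replicate 2, 7 without PEP3 replicate 2, and 6 without isoxaben plus PEP3 replicate 3, PEP3 replicate 3 or DMSO replicate 1. Of the 6 shoot markers, some of them members of this list, RBCS1A contributed most, at 13564 to 16613 FPKM. Their summed FPKM was 16851 to 17261 with both agents, 15665 to 17182 with isoxaben, 17101 to 19072 with PEP3 and 19182 to 20114 in DMSO. The summed root markers, to which the glucosidase gene BGLU23 contributed most, were 1290 to 1585, 1982 to 2514, 1648 to 1719 and 2215 to 2273 FPKM in that order. Their part in the result was not tested.

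PNSL2, a subunit of the chloroplast NDH complex, was at 9.57, 12.5 and 12.4 FPKM with both agents, 10.6, 8.56 and 9.47 FPKM with isoxaben, 13.3, 12.2 and 11.4 FPKM with PEP3 and 27.4, 27.5 and 22.5 FPKM in DMSO. Its interaction was 1.24 ± 0.162 (limma, adjusted p = 0.000969), and 25.6% of the gene overlaps an antisense neighbour. GBSS1, the granule-bound starch synthase, had an interaction of 1.08 ± 0.172, FBA5, a fructose-bisphosphate aldolase, 1.26 ± 0.251, NEET, an iron-sulfur protein, 1.38 ± 0.279, and the methylesterase-like gene MES10 1.22 ± 0.226. The pair AT5G46900 and AT5G46890, lipid-transfer-like genes that share 94.4% of their sequence, had interactions of 2.02 ± 0.204 and 1.54 ± 0.291. AT5G46900 was at 0.145 to 0.252 FPKM with both agents, 0 to 0.295 FPKM with isoxaben, 3.17 to 5.06 FPKM with PEP3 and 17.9 to 19.3 FPKM in DMSO. All 6 libraries of AT5G46900 with isoxaben were under 1 FPKM, with or without PEP3, and both calls were lost in the voom fit on recovered fragments.

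Of 22 aliphatic glucosinolate genes 4 were called above additivity, with a median of 0.24. PEP3 lowered this list more than isoxaben did: medians relative to DMSO were -0.45 with both agents, -0.13 with isoxaben and -0.52 with PEP3. CYP83A1 was at 115, 124 and 142 FPKM with both agents, 138, 156 and 141 FPKM with isoxaben, 114, 109 and 115 FPKM with PEP3 and 162, 187 and 200 FPKM in DMSO, with an interaction of 0.50 ± 0.125 (limma, adjusted p = 0.0326). The CYP83A1 call was lost under 10 of 26 other settings. The aliphatic glucosinolates count was 4 at most and 0 without isoxaben plus PEP3 replicate 2 or 3, isoxaben replicate 1 or 3, PEP3 replicate 2, or DMSO replicate 2 or 3. Among 231 cytosolic ribosomal protein genes 4 were called above additivity, near the 1.94% of all genes, while 194 of the 231 estimates were positive, with a median of 0.13. The ribosomal count was 14 without isoxaben plus PEP3 replicate 1 and 10 without PEP3 replicate 1. It was 2 without isoxaben replicate 1, PEP3 replicate 2 or DMSO replicate 1, and 1 without isoxaben plus PEP3 replicate 2 or 3, PEP3 replicate 3 or DMSO replicate 2. In the XTH family, which remodels xyloglucan in the wall, 3 of 28 were called below and 2 above, XTH23 at -1.01 ± 0.183, XTH24 at -1.03 ± 0.220 and XTH6 at 0.80 ± 0.178.

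In 10 lists limma called no member: the primary wall cellulose synthase complex, secondary wall genes, callose synthases, tubulins, MCM2-7 and PCNA, cyclins and CDKs, type-A response regulators, the circadian clock, root hair growth and PR genes. They held 162 tested genes, while 6.24% of all genes tested were called. Of the 162, 14 had an unadjusted limma p under 0.05, 9 below and 5 above. The share of all genes under that threshold is not given here, so nothing is read from this count. The voom fit on recovered fragments called 0 of the 162 and 1598 genes in all. With 1 library left out, limma called at most 1 member in either direction in any of these lists. CESA1, a subunit of the cellulose synthase that isoxaben acts on, was at 55.5, 61.2 and 62.0 FPKM with both agents, 65.3, 64.3 and 64.9 FPKM with isoxaben, 60.6, 55.2 and 62.9 FPKM with PEP3 and 64.9, 65.8 and 67.7 FPKM in DMSO. The groups lay close together and the interaction was 0.03 ± 0.0880 (adjusted p = 0.899). CESA3 had an interaction of 0.03 ± 0.0901 (adjusted p = 0.898) and CESA6 one of 0.13 ± 0.0862 (adjusted p = 0.421). Over the 11 genes of the complex the median was -0.05.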

How the data were processed

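The authors deposited one table of FPKM per gene for 12 libraries; per the submitters' processing notes reads were aligned with HISAT2 2.0.5 to TAIR10, while for the counter, its annotation and its use of strand the sources used here give nothing. All FPKM values were whole multiples of 1 fragment within a tolerance of 0.01, so fragments were recovered for depth and for a voom alternative. The size factor behind the values was 0.996 to 1.00 of a median-of-ratios factor, which is set by the median gene. Against summed fragments it was 0.982 to 1.03. Genes averaging at least 0.5 FPKM were tested on log2(FPKM + 1), which understates the change of low genes. The model had 4 treatment means and 8 residual degrees of freedom and was fitted with limma 3.58.1 in R 4.3.3 with a variance trend, and p-values were adjusted by Benjamini-Hochberg over 20248 genes. Replicates are biological per the series' design text. Additivity of FPKM itself was tested with errors carried over from that fit. The other 12585 genes were not tested. Python 3.11.15, numpy 2.4.6, pandas 2.3.3, scipy 1.17.1, matplotlib 3.10.9 and BLAST 2.17.0 were also used.

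The members and gene lists were chosen with earlier results of these data known. Genes were named by a rule: the 12 lowest and 12 highest interactions among called protein-coding genes reaching 5 FPKM in a treatment, the 3 largest called per list, a panel named whatever its values, and the 3 largest sign changes of each kind. CYP82C2, AGT1, PIP1-5 and other genes outside the rule were chosen after their values were seen. Gene positions and promoters come from the RefSeq annotation of TAIR10.1, matched by locus for 32548 of 32833 genes. Copies were searched by BLAST, and genes with near-identical copies or overlapping neighbours are uncertain. On simulated data with 200 changed genes among 20248, the interaction test recovered 76.3% of changes of 1 and 98.1% of changes of 2 on the log2 scale, with 3.83% of calls false. The linear test recovered 56.1% and 82.8%, with 1.44% false. Noise in both simulations was independent and normal on the log2 scale with the fitted spread, and all other genes were set to be additive. Effects of single libraries were not simulated, so these shares hold only where such assumptions do.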

Additional observations from a re-analysis of the deposited data

Results flagged for a closer look

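Of the genes whose effect of one agent changed direction with the other, 110 for PEP3 and 4 for isoxaben, the 3 with the largest interactions of each kind are given, which are 5 genes since AT5G50550 is in both. For PEP3, AIG1 had an interaction of -3.17, AT5G50550 one of -2.82 and AT1G57630 one of -2.78 (limma, adjusted p = 0.000251, 0.00517 and 0.000716). In each, PEP3 lowered the gene in the presence of isoxaben and raised it in its absence. For isoxaben, the plastid gene TRNR.1 had an interaction of -2.89 (limma, adjusted p = 0.00366) and AT5G06565 one of -2.33 (adjusted p = 0.00626). Isoxaben changed them by 1.21 and 1.27 alone, and by -1.68 and -1.07 on top of PEP3. Their departures from the linear sum were only -6.73 and -2.79 FPKM. Under other settings the log2 interactions ran from -5.38 to -2.61 and from -7.31 to -1.93, so their size depended on the processing. The sequence of AT5G50550 is identical to that of AT5G50650, so its reads cannot be assigned to either copy with certainty.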

How the results depend on the processing

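The balance toward departures below additivity kept its direction under every alternative run. At an adjusted p under 0.01 there were 405 calls, 341 below and 64 above, and with an absolute interaction of at least 1 there were 303, 284 below and 19 above. Calls above additivity numbered 242 with no filter on low values, 222 with no variance trend and 599 with voom on recovered fragments. With 1 library left out, total calls were 662 to 1500, those below 522 to 1021 and those above 140 to 521. Calls above were 218 without isoxaben plus PEP3 replicate 2 and 201 without PEP3 replicate 3. Genes with opposite PEP3 effects numbered 110, and 70 with no filter, 72 with no variance trend, 12 at an adjusted p under 0.01, 56 with an absolute interaction of at least 1 and 44 to 161 with 1 library left out. Opposite isoxaben effects numbered 4, and 2 among protein-coding genes, 1 at an adjusted p under 0.01 and 2 to 9 with 1 library left out. CYP71A12 turned from -2.68 on the log2 scale to 12.9 FPKM above the linear sum, which was not called (linear test, adjusted p = 0.761). The 2 values measure departures from different sums, 1 of logs and 1 of FPKM. Why the counts varied between settings was not tested.

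No pairing by replicate number was seen. Correlations of deviations between treatments ran from -0.11 to 0.103 for same-numbered libraries and from -0.0983 to 0.123 for the others. With 3 libraries per treatment, these values cannot show that the samples were unpaired. With the replicate number as a block there were 1173 calls, 361 of them above. Depth limits genes near 0, where 1 FPKM added before taking logs sets the size of a change.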
